A study of Mus musculus with 26 samples.

Results

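Primary mouse osteosarcomas were ordered by their level of the transcript for bone sialoprotein (Ibsp), and the tumours at both ends of that order were compared for every other gene measured. The 15 samples labelled as primary tumours were ranked by the intensity of 1 of the Ibsp probe sets on the array. The 5 highest made the high tier, the 5 lowest made the low tier and the other 5 the middle tier, so the comparison used 10 of the 26 arrays in the series. The tiers were thus chosen by a measured value, the Ibsp intensity, and not by a label, so Ibsp itself is described and not tested. The series holds, beside the primary tumours, 3 cultures of osteoblasts differentiated in vitro from wild type mice, 4 osteosarcoma cell lines and 4 secondary tumours. These secondary tumours are labelled as transplants or as tumour tissue derived from a cell line, not as metastases. The primary tumours are labelled only as osteosarcoma from a mouse model, each with its own number. Driver mutations, strain, age, sex and tumour site are not stated in the sources used here. Every array measured 1 labelled tumour, and the labels do not say whether tumours were dissected free of neighbouring tissue.

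Bone sialoprotein is an acidic, heavily glycosylated phosphoprotein that osteoblasts secrete into mineralising matrix. It binds hydroxyapatite through runs of acidic residues and binds integrins through an RGD motif, and it belongs with osteopontin (Spp1), Dmp1, Mepe and Dspp to a family of small integrin-binding glycoproteins. Its transcript appears late in osteoblast maturation, after alkaline phosphatase and type I collagen, and it is widely used to mark bone-forming cells in osteosarcoma.

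In the high tier the Ibsp intensity was 5826 in tumour 182, 6145 in tumour 87, 6369 in tumour 179, 6633 in tumour 176 and 8406 in tumour 183. In the low tier it was 26.6 in tumour 330, 1512 in tumour 66, 1568 in tumour 94, 1851 in tumour 353 and 2775 in tumour 331. The middle tier ran from 3582 to 4918, so the members just inside and just outside the tiers were close: 2775 against 3582 at the lower edge, and 5826 against 4918 at the upper edge. The low tier therefore held 1 tumour with almost no Ibsp signal and 4 with a clear one. Tumour 330 lay 56.9-fold below the next tumour, whereas the whole span of the other 14 was 5.56-fold. On the log2 scale the tier means were 12.69 ± 0.20 (SD, n = 5) in the high tier, 12.00 ± 0.23 (n = 5) in the middle tier and 9.64 ± 2.77 (n = 5) in the low tier. The gap between the high and low means was 3.05, and it was 1.83 without tumour 330. Tumour 330 also went against its label in part: it was below the other 14 in 4 of the 6 osteoblast markers tested, Alpl and Sp7 among them, and in a dimmer probe set of Col1a1, while the brightest Col1a1 probe set lay within their range. The main results are therefore given with and without it.

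Ibsp was also measured in samples that the ranking did not use. The 3 osteoblast cultures read 4560, 4927 and 5170, within the range of the primary tumours. Cell lines numbered like the high tier tumours 176, 179 and 182 read 1111, 256 and 507, each lower than the tumour of that number, and the line numbered 213 read 2.62. The secondary tumours numbered 66 and 94, like members of the low tier, read 893 and 335, and those numbered 29 and 64 read 1507 and 5201. The secondary samples numbered 29, 64 and 94 are labelled as secondary transplant osteosarcoma, and the number 66 sample as tumour tissue derived from a cell line.

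**Figure D1:**
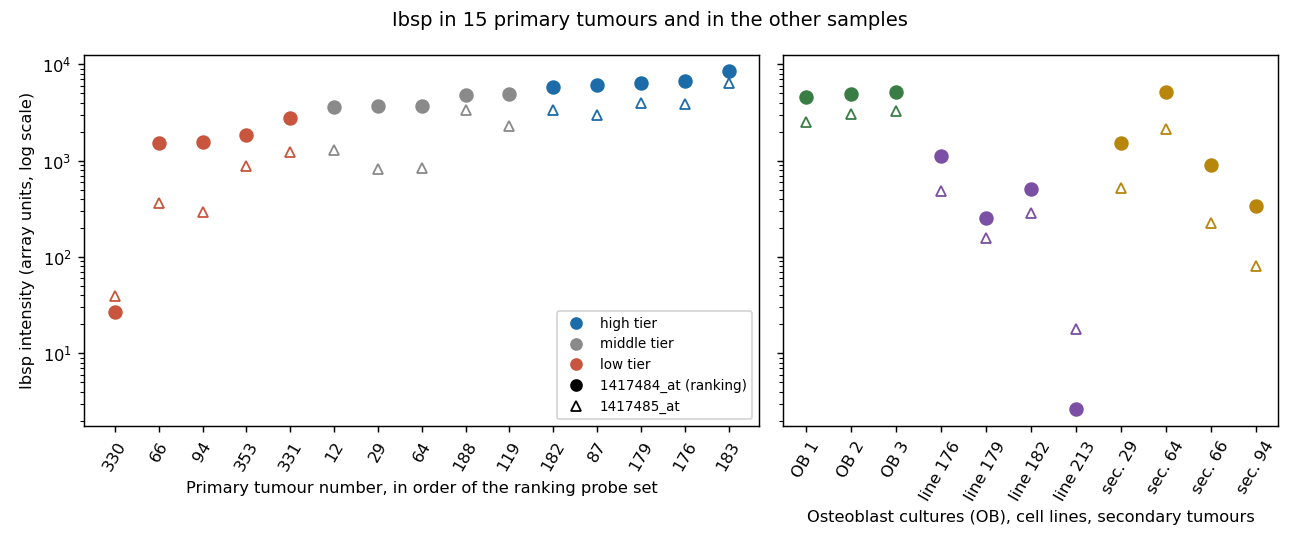
Ibsp intensity on a log axis in the 15 primary tumours, in order of the ranking probe set and coloured by tier (left), and in osteoblast cultures, cell lines and secondary tumours (right); filled circles are the ranking probe set and open triangles a second probe set, 1 point per array. Tumour 330 stands at 26.6 while the other primary tumours lie between 1512 and 8406.

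The second Ibsp probe set gave another order of the tumours. It placed tumour 330 lowest as well, at 39.4, but it shared only 3 of the lowest 5 and 4 of the highest 5 with the ranking probe set. The 15 primary tumour arrays fell into sets by bacterial control transcripts spiked in for hybridisation: the bioB to bioC ratio was 1.18 to 1.23 on 8 arrays and 0.418 to 0.436 on 7 arrays. The Gapdh 5′ to 3′ ratio, a measure of intact RNA and full-length copying, was 0.909 to 1.03 in the first set and 0.656 to 0.845 in the second. The second Ibsp probe set read 0.438 to 1.48 times the ranking one in the first set and 0.188 to 0.478 times in the second. Of its own highest 5 tumours all 5 were in the first set, and of its own lowest 5 tumours 4 were in the second. With the ranking probe set, the high tier held 4 arrays of the first set and 1 of the second (tumour 87), and the low tier held 3 and 2 (tumours 66 and 94). Between these tiers the mean Gapdh ratio was 0.943 (range 0.785 to 1.02) against 0.869 (0.656 to 1.03), with an exact two-sided permutation p of 0.389 (0.655 adjusted over 3 array measures). The bioB to bioC ratio was 1.06 against 0.895 (exact p = 0.437, adjusted 0.655) and the array median 53.1 against 53.6 (exact p = 0.698, also after adjustment), where the smallest p that 252 splits can give is 0.00794.

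The promoters of Ibsp, of Btla as the called gene and of Bmp8a as a bone growth factor among the genes named below are printed for orientation: the 250 bases before the annotated start, from RefSeq on build GRCm38.p6, 5′ to 3′ on the strand of the gene. Capitals mark matches, on either strand, to the RUNX core ACCACA, the CCAAT box CCAAT, the TATA box TATAAA or the cAMP element core TGACG. The regions are chr5:104299037-104299286 (plus strand) for Ibsp, chr4:123343253-123343502 (minus strand) for Bmp8a and chr16:45224087-45224336 (plus strand) for Btla.
Ibsp: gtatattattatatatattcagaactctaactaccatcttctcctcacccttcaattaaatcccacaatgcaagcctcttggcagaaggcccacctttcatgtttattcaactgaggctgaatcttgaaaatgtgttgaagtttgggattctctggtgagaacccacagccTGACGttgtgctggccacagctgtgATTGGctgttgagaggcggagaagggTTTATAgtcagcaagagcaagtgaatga
Bmp8a: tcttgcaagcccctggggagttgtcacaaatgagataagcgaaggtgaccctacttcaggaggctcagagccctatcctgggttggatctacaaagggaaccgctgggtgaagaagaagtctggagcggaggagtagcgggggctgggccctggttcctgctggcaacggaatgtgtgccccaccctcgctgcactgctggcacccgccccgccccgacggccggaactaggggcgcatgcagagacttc
Btla: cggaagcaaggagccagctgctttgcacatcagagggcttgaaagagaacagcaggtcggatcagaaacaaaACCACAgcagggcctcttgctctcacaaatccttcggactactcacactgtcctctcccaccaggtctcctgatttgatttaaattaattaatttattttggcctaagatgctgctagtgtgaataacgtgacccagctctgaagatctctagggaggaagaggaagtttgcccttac
The Ibsp window held a TATA box on the opposite strand 28 to 23 bases before the start, a CCAAT box on the opposite strand 54 to 50 bases before it and a cAMP element core 79 to 75 bases before it. The Btla window held a RUNX core 178 to 173 bases before the start, and the Bmp8a window held none of the 4 motifs. Among 32851 promoter windows of the same length, 14% held the RUNX core, 33.8% the CCAAT box, 12.4% the TATA box and 17.8% the cAMP element core, and a match is a description of letters only.

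The high tier differed from the low tier by a called amount in 1 of 12201 genes. A gene was called when limma's Benjamini-Hochberg adjusted p over all genes was below 0.05 and its log2 difference at least 1. Btla was called higher (0.0082% of genes), and no gene was called lower (0%). Before adjustment 1179 genes (9.66%) had p below 0.05, 594 of them higher (4.87%) and 585 lower (4.79%) in the high tier. The tiers did not overlap, with all 5 tumours of one above all 5 of the other, in 122 genes that were higher (1%) and 109 that were lower (0.893%), together 1.89%. Of these 231 genes 64 differed by at least 1 on the log2 scale, 43 higher and 21 lower. The median difference of all genes was 0.0066.

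Btla encodes an inhibitory receptor known from B and T lymphocytes. Its log2 intensity was 9.11 in tumour 182, 7.67 in 87, 7.80 in 179, 8.39 in 176 and 9.74 in 183, against 4.82 in 330, 5.44 in 66, 5.21 in 94, 4.47 in 353 and 6.28 in 331. Every high tier tumour was above every low tier tumour, and the middle tier lay between them at 5.61 to 7.46, touching only the low tier. The difference was 3.30 (SE 0.45), a 9.84-fold change (limma, adjusted p = 0.0336). Without tumour 330 it was 3.19 (SE 0.49), with an adjusted p of 0.0539, so the size hardly moved and the call was lost. Leaving out each of the 10 tumours in turn gave 3.00 to 3.56, and the call was also lost without tumours 66, 94, 353, 182, 176 or 183. Within the arrays of the upper control ratio the difference was 3.57 (adjusted p = 0.332) and within those of the lower ratio 2.35 (adjusted p = 0.877), with 4 against 3 and 1 against 2 arrays.

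Btla was low outside the primary tumours. It read 4.53 to 4.82 in the osteoblast cultures, 4.83, 6.08 and 5.40 in the cell lines numbered like the high tier tumours 176, 179 and 182, and 4.23 to 6.44 in the secondary tumours. Most lymphocyte markers were too dim to test in the primary tumours: 13 of 15 T and NK cell markers, among them Cd3e, Cd3d and Cd3g, and 10 of 14 B and plasma cell markers had no probe set that passed the filter or no named one. The mean of the 2 T and NK cell markers that were tested was 6.80 to 7.04 in the high tier and 6.81 to 6.95 in the low tier. The mean of the 4 tested B and plasma cell markers was 7.48 to 8.51 and 7.53 to 8.19. Cd8a and Zap70, the T and NK cell markers, read 6.41 to 6.62 and 6.85 to 7.27 in the osteoblast cultures. In the cell lines they read 6.21 to 6.71 and 6.75 to 7.18. Ighm, Sdc1 and Igll1 also lay within their primary tumour range in the osteoblast cultures, while Blnk lay below it. With such signal in cultured cells, the list means cannot show whether lymphocytes differed between the tiers, which was not tested. Btla rested on a single probe set.

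By the naming rule, the other 9 genes named as higher were not called. The adjusted p of these 9 (limma) ran from 0.0842 for Etfbkmt to 0.176 for Lrp4, and their tiers did not overlap. Bmp8a, a ligand of the bone morphogenetic protein family, had the largest difference among them. It read 8.80, 9.55, 9.22, 9.23 and 8.73 in tumours 182, 87, 179, 176 and 183, and 5.13, 7.65, 8.14, 7.05 and 6.86 in tumours 330, 66, 94, 353 and 331. The high tier was tight and the low tier wide, with tumour 330 lowest of all 15 tumours. The difference was 2.14 (SE 0.43, adjusted p = 0.134), and 1.68 (SE 0.29, adjusted p = 0.0865) without tumour 330. Lrp4, a receptor of the low density lipoprotein receptor family that binds sclerostin in bone, differed by 1.48 (SE 0.32) and by 1.18 without tumour 330.

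Slit3, a secreted ligand of Robo receptors, went the other way when tumour 330 was left out. Its values were 9.06, 9.84, 9.20, 9.19 and 9.05 in the high tier, in the tumour order given for Bmp8a, and 8.69, 6.77, 7.61, 8.02 and 7.23 in the low tier. Tumour 330 was the highest of the low tier, and the difference grew from 1.60 (SE 0.32, adjusted p = 0.134) to 1.86 (SE 0.28, adjusted p = 0.0539) without it. Ramp3, which pairs with the calcitonin receptor-like receptor, differed by 1.17 (SE 0.23), with 6.83 to 7.99 in the high tier and 6.198 to 6.72 in the low tier.

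The remaining genes named as higher have varied functions. Ncf1, a subunit of the phagocyte NADPH oxidase, read 8.13 to 8.77 in the high tier and 6.25 to 7.47 in the low tier. Its difference was 1.62, while dimmer probe sets of the gene gave 0.14 and 1.11. Etfbkmt, a mitochondrial lysine methyltransferase, differed by 1.60 (SE 0.28), and Marchf8, a membrane-bound ubiquitin ligase, by 1.21 (SE 0.23). A dimmer probe set of Etfbkmt gave 0.31, and with the probe set used only 1 low tier array was above the filter on low values. Tspan4, a tetraspanin, differed by 1.21 and Tmie, a membrane protein of the mechanotransduction complex of hair cells, by 1.497. Marchf8 was highest in the middle tier, with a mean of 8.07 against 7.61 in the high tier, so it did not follow the order of Ibsp.

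Crabp1, which binds retinoic acid in the cytoplasm, had the largest difference among the 10 genes named as lower. It read 8.13 in tumour 182, 7.83 in 87, 8.85 in 179, 7.77 in 176 and 6.19 in 183, against 10.92 in 330, 10.76 in 66, 10.39 in 94, 11.92 in 353 and 10.63 in 331. Each low tier tumour was above each high tier tumour, and the middle tier spanned the gap at 7.38 to 10.32. The difference was -3.17 (SE 0.54) with an adjusted p of 0.0842 (limma), and it was -3.17 (SE 0.59, adjusted p = 0.118) without tumour 330. Tumour 330 was thus an ordinary member of the low tier for this gene.

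Ly6e, a membrane-anchored protein induced by interferon, had the next smallest p. It read 7.79, 8.37, 9.74, 8.61 and 9.10 in tumours 182, 87, 179, 176 and 183, and 10.70, 11.03, 9.97, 10.74 and 10.47 in tumours 330, 66, 94, 353 and 331. The tiers were parted by a narrow gap, between tumour 179 and tumour 94, and the difference was -1.86 (SE 0.32, limma adjusted p = 0.0842) and -1.83 without tumour 330. A dimmer probe set of Ly6e gave -0.74, or -0.83 without tumour 330. Hmgcs1, the cytosolic synthase of the mevalonate pathway that leads to cholesterol, differed by -1.28 (SE 0.22, adjusted p = 0.0842), with 8.62 to 9.83 in the high tier and 10.27 to 10.96 in the low tier.

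The low tier was very even in some of these genes. Reep2, which shapes the endoplasmic reticulum, read 6.77 to 7.01 in the low tier and 5.63 to 6.33 in the high tier. Naip2, a cytosolic sensor of bacterial proteins, read 6.30 to 6.56 in the low tier, while the high tier split into 4.33, 4.35 and 4.61 in tumours 176, 182 and 179 and 5.77 and 6.21 in tumours 183 and 87. In both genes tumour 330 lay with the rest of the low tier.

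Col7a1, the collagen of anchoring fibrils, differed by -1.41 (SE 0.29), and tumour 94 stood above the rest of the low tier. Tgfb1i1, a focal adhesion adaptor, differed by -1.06, Myo16, an unconventional myosin, by -1.84, and Ggt7, of the gamma-glutamyltransferase family, by -1.10. Sv2a, a synaptic vesicle protein, read 5.04 to 6.32 in the low tier and 3.69 to 4.93 in the high tier, with tumours 182 and 179 at the floor of 3.69 below which intensities were not told apart. It passed the filter on low values through 2 arrays of the low and 2 of the middle tier and none of the high tier, so its difference is a description only. The adjusted p of the 10 genes named as lower ran from 0.0842 to 0.237, and none was called. Of all 20 genes named, 18 had a middle tier mean between the other tiers, as had 187 of the 231 genes whose tiers did not overlap. The exceptions among the 20 were Marchf8 and Sv2a. The 20 and the 231 genes were picked for tiers that do not overlap, which makes a middle tier mean between them likely in any case. The counts are therefore no test of a graded relation to Ibsp. The middle tier held 1 array of the upper control ratio and 4 of the lower, against 4 and 1 in the high tier, and the part of the array sets in its position was not tested.

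**Figure D2:**
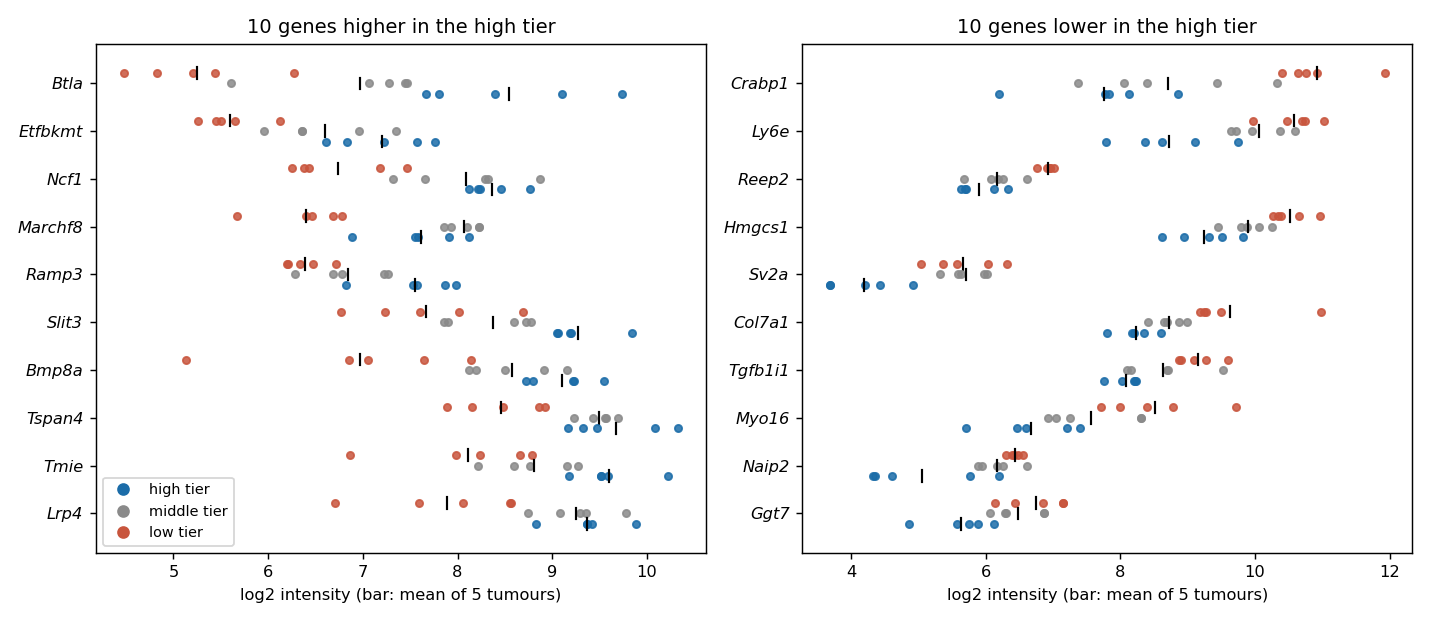
Log2 intensities of the 10 genes named as higher (left) and the 10 named as lower (right) in the high tier, 1 point per tumour, coloured by tier, with a bar at each tier mean (n = 5). The high and low tiers do not overlap in any of the 20 genes, and Btla alone was called.

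The closest relatives of Ibsp on these arrays gave little to compare. Of the small integrin-binding glycoproteins only Dmp1, a matrix protein of osteocytes, was tested: Mepe was too dim in the primary tumours, and Spp1 and Dspp were not tested. Dmp1 read 9.69, 10.26, 8.87, 4.40 and 10.26 in tumours 182, 87, 179, 176 and 183, and 4.39, 8.29, 7.76, 7.44 and 8.93 in tumours 330, 66, 94, 353 and 331. A single tumour of each tier, 176 and 330, was near 4.4, so a tumour with the second highest Ibsp had about as little Dmp1 signal as the tumour with the lowest Ibsp. The difference was 1.34 (SE 1.10, adjusted p = 0.723), and 0.59 without tumour 330 but 2.41 without tumour 176. Tumours ranked by the second Ibsp probe set gave -0.23. Dimmer probe sets of Dmp1 differed by 1.96 and 1.59 between the tiers, and by 1.58 and 0.85 without tumour 330.

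Alkaline phosphatase (Alpl), the ectoenzyme that releases phosphate for mineral, showed how far tumour 330 carried a difference. The gene read 11.80, 12.68, 12.99, 12.16 and 11.86 in tumours 182, 87, 179, 176 and 183. The low tier read 7.42 in tumour 330 and 12.60, 11.93, 11.96 and 12.40 in tumours 66, 94, 353 and 331. Apart from tumour 330 all 14 primary tumours lay between 11.80 and 13.05. The difference of 1.04 (SE 0.74, adjusted p = 0.680) was 0.08 (SE 0.26) without tumour 330.

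Sp7 (osterix), a zinc finger factor needed for osteoblast formation, had the same shape. It read 6.86 in tumour 330 and 9.91 to 10.99 in the other 14. The difference was 0.62 (SE 0.56) with tumour 330 and -0.09 (SE 0.22) without it. Phex, a membrane peptidase of osteoblasts and osteocytes, turned on 1 high tier tumour instead: tumour 183 read 10.36 and the other members of both tiers 3.69 to 4.18, 6 of them at the floor.

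Col1a1, the main collagen of bone, read 13.88 to 14.11 in the high tier and 13.91 to 13.998 in the low tier, and tumour 330 read 13.93. The difference was 0.04 (SE 0.10). A dimmer probe set of the gene showed more spread: tumour 330 read 10.18 and the other 14 read 10.48 to 11.84, and the difference was 0.19, or -0.04 without tumour 330. Spp1, Bglap and Runx2 had no probe set named by the annotation used, so their levels are not given.

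Of the 27 genes listed for bone matrix and mineralisation 21 were tested, and none was called. Of these 15 had a positive and 6 a negative difference, and 7 had an unadjusted p below 0.05, all higher in the high tier. Among all genes 4.87% were higher with such a p. The median difference was 0.66, against 0.0066 for all genes, and 0.53 without tumour 330. Tumours ranked by the second Ibsp probe set gave a median of 0.28, and leaving out tumour 330 while taking in the next tumour gave 0.11. Of the 21 genes, 12 had tumour 330 below all other 14 primary tumours.

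Ifitm5, a membrane protein of mineralising osteoblasts, had the largest difference of the list. It read 10.16, 9.31, 8.90, 10.94 and 9.06 in tumours 182, 87, 179, 176 and 183, and 5.33, 8.45, 6.75, 8.80 and 8.80 in tumours 330, 66, 94, 353 and 331. The tiers did not overlap, by a margin between tumour 179 and tumours 353 and 331. The difference was 2.05 (SE 0.62, adjusted p = 0.340), and 1.47 (SE 0.49) without tumour 330.

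Mgp, an inhibitor of calcification, had the smallest p of the list and was nearly as large without tumour 330. It read 12.29, 11.32, 11.10, 12.59 and 10.89 in the high tier, in that order, and 10.19, 10.21, 10.60, 10.39 and 10.30 in the low tier. The difference was 1.302 (SE 0.38, adjusted p = 0.326), and 1.26 without tumour 330. Col11a2, a fibrillar collagen chain, differed by 1.92 (SE 0.62) and Ank, which exports pyrophosphate and citrate, by 1.01 (SE 0.33). In both the tiers overlapped.

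Osteoblast transcription factors had a median difference of 0.15 over 17 genes tested, and -0.07 without tumour 330, which lay below the other 14 tumours in 7 of them. None was called or had p below 0.05. The smallest p belonged to Msx1, a homeobox factor, with a difference of 0.50 (0.35 without tumour 330 and 0.20 without tumour 87), and to Vdr, the vitamin D receptor, with 0.43 (0.31 without tumour 330 and 0.17 without tumour 183). Receptors and signalling genes of osteoblasts had a median of 0.29 over 24 genes, and 0.04 without tumour 330, which was below the others in 14. Beside Bmp8a and Lrp4, Cdh2 (N-cadherin) differed by 0.90, or 0.66 without tumour 330, and the Wnt co-receptor Lrp6 by 0.39.

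Other skeletal lists had medians from -0.06 to 0.37. The 9 tested osteocyte genes had a median of 0.37, or 0.13 to 0.68 when each tumour was left out in turn, with Capg, an actin capping protein, at 1.06 and non-overlapping tiers, and Mef2c, a transcription factor, at 0.61, or 0.30 without tumour 330. Dimmer probe sets of Mef2c gave larger differences, 0.87 to 1.15, and 0.64 to 0.93 without tumour 330. The 20 collagen processing genes had a median of -0.06 with 9 positive and 11 negative, and tumour 330 was below the others in 0 of them. The 12 integrin and partner genes had a median of 0.01, with 0 at p below 0.05. Of 13 cartilage genes 7 were positive, with a median of 0.09 (-0.03 without tumour 330): Prg4, the lubricin of joint surfaces, differed by 1.89 and Sox6, a chondrocyte factor, by 1.03, or 1.38 without tumour 330. Sox9, of the same list, went the other way, at -0.91 both with and without tumour 330.

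**Figure D3:**
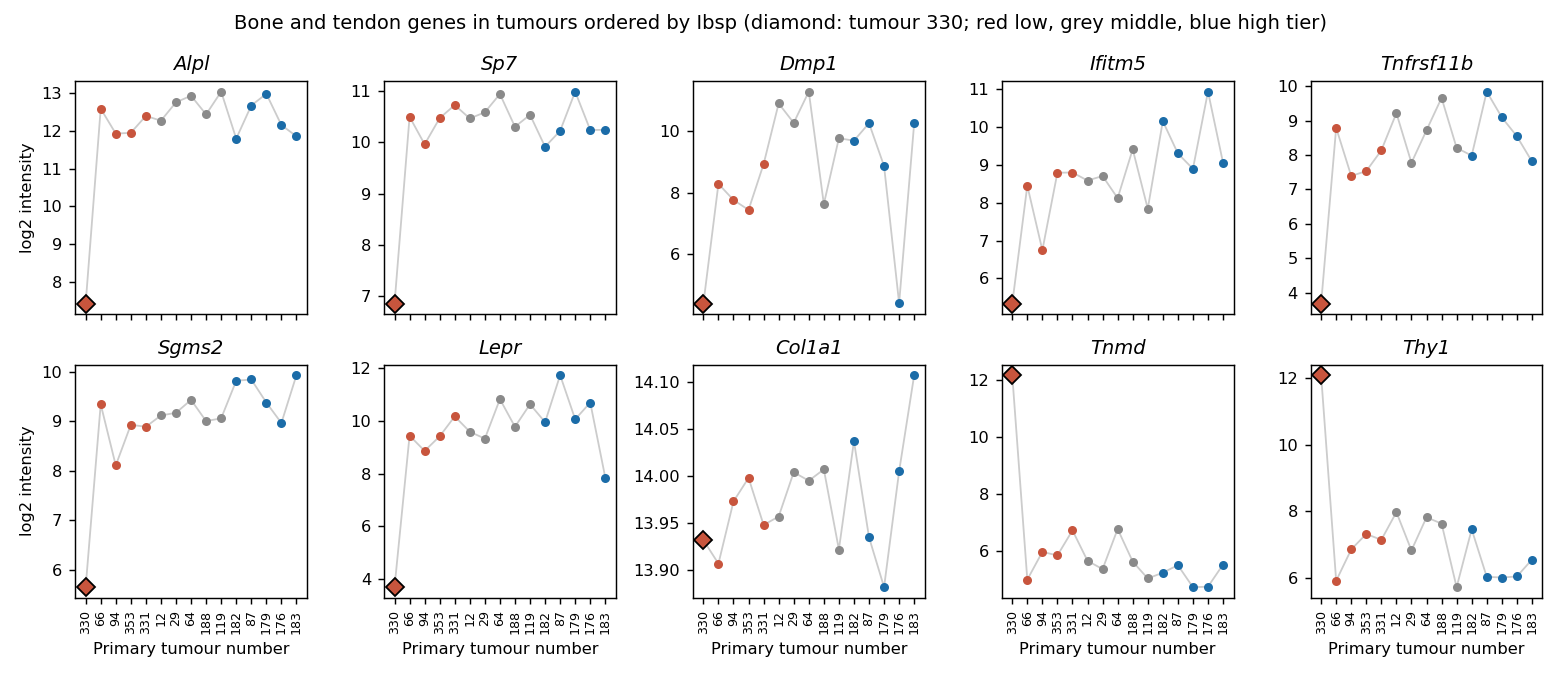
Log2 intensity of 10 genes in the 15 primary tumours in order of Ibsp, coloured by tier, with tumour 330 as a diamond; each panel has its own scale. Alpl, Sp7, Tnfrsf11b, Sgms2 and Lepr are lowest in tumour 330, Tnmd and Thy1 are highest in it, and Col1a1 spans only 13.88 to 14.11 with the probe set shown.

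Tumour 330 stood apart from the other primary tumours in much more than Ibsp. It lay outside the range of the other 14 in 2919 of 12201 genes (23.9%), below in 12.5% and above in 11.4%. Each of the other 14 tumours lay outside the rest in 7.43% to 20% of genes. In 29 genes it was at least 2 on the log2 scale below all others, and in 14 at least 2 above, against 0 to 3 and 0 to 8 genes for the other tumours. Its median correlation with the other arrays over all genes was 0.850, where the others had 0.861 to 0.922.

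Genes known from bone cells and their stroma were among those lowest in tumour 330, and they are named here after their values were seen. Tnfrsf11b (osteoprotegerin), the decoy receptor that restrains osteoclast formation, was at the floor of 3.69 in tumour 330 and at 7.39 to 9.84 in the others. Lepr, the leptin receptor carried by skeletal stromal cells, was also at the floor, against 7.85 to 11.74. Ptgis, the prostacyclin synthase, read 6.11 against 11.21 to 12.85, and Cpe, a carboxypeptidase, 7.06 against 11.07 to 13.08.

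Others were Sgms2, a sphingomyelin synthase of mineralising bone, at 5.64 against 8.11 to 9.93, and Id3, a target of BMP signalling, at 8.31 against 10.69 to 12.46. Col22a1, a collagen of tissue junctions, read 5.24 against 7.82 to 9.66. In the opposite direction, Tnmd (tenomodulin), a membrane glycoprotein of tendon, read 12.16 in tumour 330 and 4.75 to 6.79 in the other 14. Thy1, a surface protein of fibroblasts and other stromal cells, read 12.10 against 5.72 to 7.98. Scx, a transcription factor of tendon, read 8.81 against 4.203 to 7.60.

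A linear trend on log2 Ibsp over all 15 tumours made the weight of tumour 330 plain. For the trend a gene was called by an adjusted p below 0.05 alone, without the threshold of 1 on the difference. The count is therefore not on the same footing as that of the tiers. It called 85 genes (0.697%), 51 higher with Ibsp (0.418%) and 34 lower (0.279%). In all 85 tumour 330 lay outside the other 14, compared with 23.9% of all genes, and in only 9 of the 85 did the high and low tiers not overlap. Without tumour 330 the trend called 1 gene (0.0082%), Btla, with a difference of 3.14 over the gap between the tier means (adjusted p = 0.0097), and 0 of the 85. Alpl, for example, had a trend difference of 1.84 (adjusted p = 0.0021) with tumour 330 and 0.10 (adjusted p = 0.897) without it.

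In the comparison of tiers, 427 genes differed by at least 1 with tumour 330, and 496 without it. Of these 345 did so in both with the same sign, 82 only with tumour 330 and 151 only without it. Without it no gene was called (0%), although 1419 genes (11.6%) had an unadjusted p below 0.05 in limma. The trend without tumour 330 called Btla, as stated.

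Some genes were shared by the other 4 low tier tumours and not by tumour 330, and these too are named after their values were seen. Cyp3a44, a cytochrome P450, was at the floor in 182, 87, 176 and 183 and at 5.44 in 179, and it read 7.43, 9.88, 9.26 and 8.88 in tumours 66, 94, 353 and 331. Tumour 330 was at the floor, like most of the high tier. The tier means differed by -3.79 over all 10 tumours and by -4.82 without tumour 330. No high tier array was above the filter on low values, which the gene passed through 4 low tier arrays and 1 of the middle tier, so these differences are descriptions only. Its near-identical relative Cyp3a11, whose transcripts may cross-hybridise, differed by -2.27 and by -2.84 without tumour 330.

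Spon2, a secreted matrix protein, followed the same division, at 7.89 to 8.86 in those 4 tumours, 4.83 in tumour 330 and 5.36 to 6.86 in the high tier. Tmem158, a membrane protein, read 9.22 to 10.35 in those 4 tumours, 7.83 in tumour 330 and 6.78 to 8.27 in the high tier. Without tumour 330 the differences were -2.76 (SE 0.47) for Spon2 and -2.38 (SE 0.44) for Tmem158, with adjusted p of 0.0865 and 0.118 from limma. Other probe sets gave smaller differences without tumour 330: -0.79 for Spon2, and -1.06 and -1.24 for Tmem158.

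**Figure D4:**
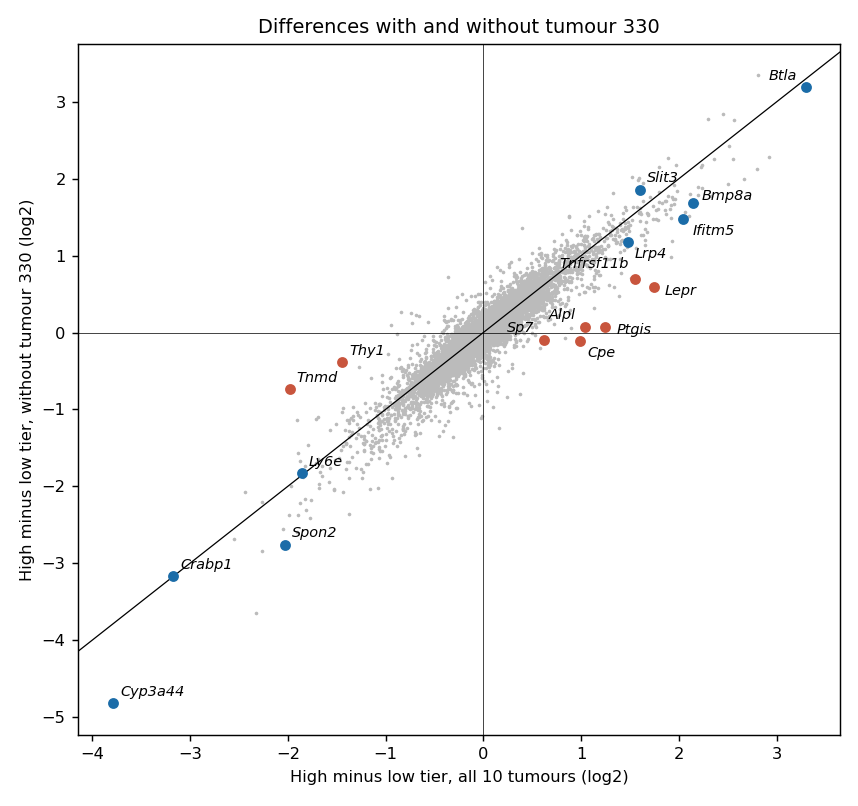
Log2 difference of the high minus the low tier over all 10 tumours (horizontal) and without tumour 330 (vertical), 1 point per gene, with the line of equality. Btla, Crabp1 and Ly6e lie near the line; Alpl, Ptgis, Cpe and Sp7 fall to about 0 without tumour 330; Cyp3a44 moves from -3.79 to -4.82.

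Macrophage markers leaned toward the high tier, without any gene called. Of 16 markers tested 15 had a positive difference and 9 an unadjusted p below 0.05, and the median was 0.88, or 1.05 without tumour 330. These 9 were higher in the high tier, as were 4.87% of all genes at that p. Cd14, the co-receptor for lipopolysaccharide, read 8.86, 9.46, 7.99, 8.12 and 10.27 in tumours 182, 87, 179, 176 and 183, and 7.36, 7.22, 7.25, 7.24 and 7.60 in tumours 330, 66, 94, 353 and 331. Its tiers did not overlap, and the difference was 1.61 (SE 0.48, adjusted p = 0.340). Cd68 differed by 1.302, Lyz2 (lysozyme) by 1.12 and Fcgr3, an Fc receptor, by 1.11, with overlapping tiers. The mean of the list ran from 8.77 to 10.2 in the high tier and from 7.97 to 9.11 in the low tier. Its median was 0.56 within the arrays of the upper control ratio and 2.03 within those of the lower. The lower set held only tumour 87 of the high tier, against tumours 66 and 94 of the low tier. Tumour 87 had the highest list mean of the high tier (10.2), and tumour 94 the lowest of all 15 tumours (7.97). In bulk tissue, more cells of a type and more RNA per cell cannot be told apart. The part of macrophage RNA in the other differences, Ncf1 among them, was not tested.

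Skeletal muscle markers varied widely between tumours. Of 14 tested, 13 had a positive difference, with a median of 2.01 and 1.66 without tumour 330, yet none had p below 0.05. Myh2, a fast myosin heavy chain, read 12.14, 9.77, 12.23, 10.51 and 5.67 in tumours 182, 87, 179, 176 and 183, and 4.68, 7.73, 10.01, 7.55 and 6.99 in tumours 330, 66, 94, 353 and 331. Tumour 183, with the highest Ibsp, had less Myh2 than 4 of the 5 low tier tumours. The mean of the list ran from 5.37 to 10.8 in the high tier, from 5.01 to 9.30 in the low tier and from 4.59 to 11.01 over all 15 tumours. Tnnc2 differed by 2.92, Acta1 by 1.96 and Mylpf by 2.80, each with an SE above 1. With the list mean as a covariate, chosen after the data were seen, Btla differed by 3.44 (adjusted p = 0.0798), Crabp1 by -3.14 and Bmp8a by 1.92.

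Mitosis genes leaned toward the low tier. All 19 tested had a negative difference, 5 with an unadjusted p below 0.05, and the median was -0.55, or -0.47 without tumour 330. Among all genes 4.79% were lower with such a p. Ttk, a checkpoint kinase, read 5.11 to 6.07 in the high tier and 6.06 to 7.72 in the low tier, with a difference of -1.37 (SE 0.45, adjusted p = 0.379). Ccnb2 differed by -1.06, Kif11 by -1.17 and Birc5 by -0.78. Mki67, the proliferation marker, read 8.27 to 9.61 in the high tier and 8.72 to 9.91 in the low tier, and the difference was -0.49 (SE 0.35). The mean of the list overlapped, at 7.51 to 8.58 in the high tier and 8.08 to 8.95 in the low tier. S phase genes did not share the lean: 10 of 20 were positive and the median was -0.0053.

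Fibrous matrix and fibroblast genes had 17 of 23 negative differences, a median of -0.34 (-0.39 without tumour 330) and 4 genes lower with p below 0.05. At that p 4.79% of all genes were lower. Dpt (dermatopontin), a dermal matrix protein, read 8.20, 9.66, 10.42, 8.91 and 6.72 in tumours 182, 87, 179, 176 and 183, and 11.28, 10.84, 11.27, 10.44 and 11.38 in tumours 330, 66, 94, 353 and 331. The low tier was even and the high tier was spread out, with tumours 179 and 353 nearly touching at 10.42 and 10.44. The difference was -2.26 (SE 0.58, adjusted p = 0.276). Col12a1 differed by -1.40 and Scx by -1.44, or -0.99 without tumour 330, while Thbs1 (thrombospondin) differed by 1.04 in the other direction. Within the arrays of the lower control ratio, where the high tier was tumour 87 alone, the list median was 0.02.

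Interferon response genes had 14 of 16 negative differences and a median of -0.65 (-0.44 without tumour 330), and 2 low tier tumours stood above the rest. The list mean was 8.24 in tumour 330 and 8.48 in tumour 66, and 6.30 to 6.72 in the rest of the low tier, against 5.85 to 7.14 in the high tier. Ifit1 read 8.74 in tumour 330 and 9.06 in tumour 66, and 5.66 to 7.47 in the rest of the low tier. Iigp1 differed by -1.35, Oasl2 by -1.57 and Irgm1 by -0.88. The MHC class II genes had 2 of 6 positive, with a median of -0.10 that ran from -0.33 to 0.21 when each tumour was left out.

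Hypoxia and glycolysis genes had 15 of 16 positive differences with a median of 0.43, or 0.45 without tumour 330, and 2 with p below 0.05. Both were higher in the high tier, as were 4.87% of all genes at that p. Ankrd37, induced in low oxygen, read 5.95 to 6.81 in the high tier and 4.47 to 5.93 in the low tier, with a difference of 1.04 (SE 0.36). Ndrg1 differed by 1.00, or 0.69 without tumour 330, and Hk2 (hexokinase) by 0.87. The list mean overlapped, at 8.21 to 9.03 in the high tier and 7.998 to 8.74 in the low tier.

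Markers of further cell types were measured for the same tiers. Osteoblast markers, 6 of 8 tested, had a median of 0.83 with tumour 330 and 0.06 without it. Osteoclast markers had 10 of 12 positive and a median of 0.34. Tumour 183 stood out among these, with Atp6v0d2, an osteoclast proton pump subunit, at 9.38, against 4.06 to 5.32 in the other members of both tiers, and Dcstamp, a fusion protein, at 7.69 against 5.34 to 6.33. Of 5 tested adipocyte markers 3 had a positive and 2 a negative difference, with a median of 0.28. Higher, non-overlapping tiers, found in 1% of all genes, were seen in 2 of them, Cd36 (no low tier array above the filter on low values) at 4.07 to 5.64 in the low and 5.69 to 7.78 in the high tier, and Fabp4 with a difference of 1.45. The medians were 0.17 for 14 endothelial, 0.18 for 6 erythroid, 0.29 for 6 neutrophil and myeloid precursor, -0.33 for 10 smooth muscle and pericyte, 0.09 for 5 neural and Schwann cell and 0.27 for 5 skin epithelium markers. Single tumours turned some of these: without tumour 183 the endothelial median was -0.03, the neutrophil median -0.05 and the skin epithelium median -0.59, and without tumour 330 the smooth muscle and pericyte median was 0.06. The part of these cells in the differences between the tiers was not tested.

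**Figure D5:**
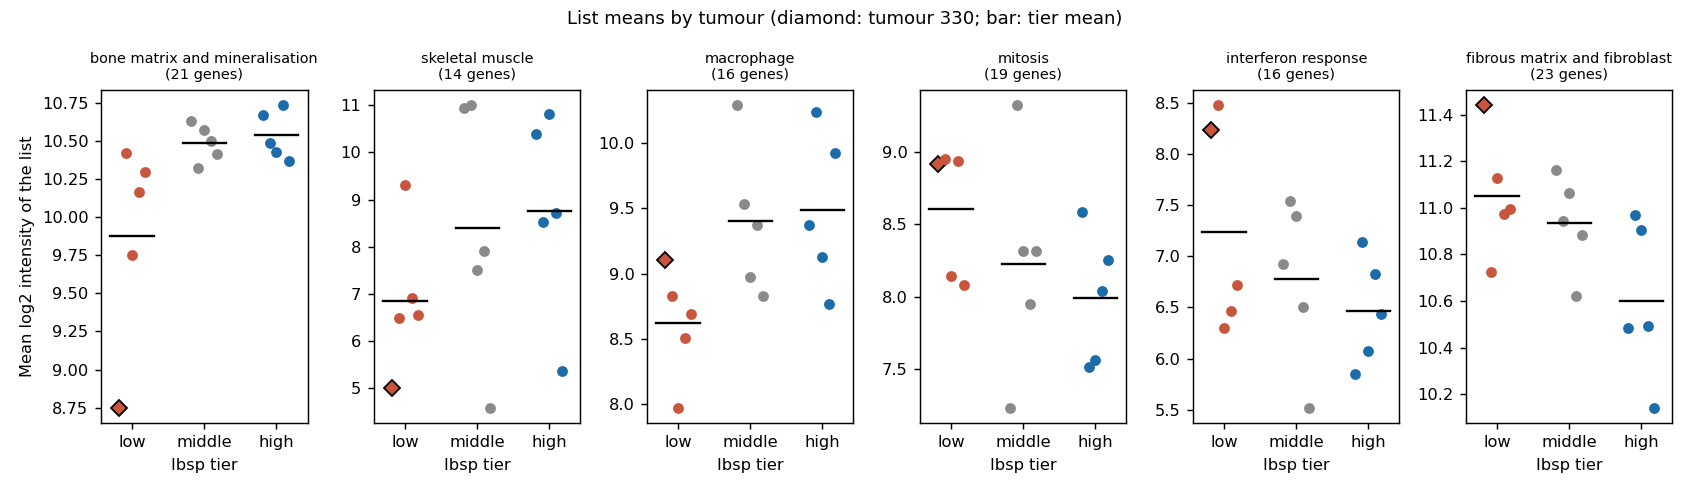
Mean log2 intensity of 6 gene lists in each primary tumour by Ibsp tier, with a bar at the tier mean (n = 5) and tumour 330 as a diamond; each panel has its own scale. Tumour 330 is lowest in bone matrix and highest in fibrous matrix genes, and skeletal muscle spans 4.59 to 11.01.

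Arrays of similar hybridisation control ratio were also fitted alone. The tiers of the genes named next did not overlap, so the signs of their differences could not change. Only the sizes are therefore described. Bmp8a differed by 2.65 within the upper ratio and 1.65 within the lower, Crabp1 by -3.42 and -2.75, Ly6e by -1.83 and -2.13 and Slit3 by 1.14 and 2.65. Within the upper ratio none of these passed the threshold with so few arrays, and within the lower ratio the high tier was tumour 87 alone. With the control ratio as a covariate over all 15 arrays, Btla differed by 3.21 (adjusted p = 0.0615), Bmp8a by 2.34 (adjusted p = 0.0615) and Crabp1 by -3.17 (adjusted p = 0.0951).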

How the data were processed

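Transcript levels of 15 primary osteosarcomas were used, 1 biotin-labelled array each. The deposited values are linear intensities, 1 per probe set (45101, of which 64 are controls). How the authors summarised and scaled them is not given in the sources used here, and they were used as deposited. Intensities below the 20th percentile of the 15 arrays (12.9, or 3.69 on the log2 scale) were raised to it and taken to log2. Probe sets above the median (54.5) on at least 3 of 15 arrays were kept. The annotation gave 1 symbol to 34958 probe sets, several to 932 and none to 9211, and 34754 matched RefSeq (GRCm38.p6) by gene identifier. The brightest kept probe set stood for each gene, which left 12201 genes, with every Ibsp probe set left out.

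All 15 arrays, in 3 tiers, entered 1 limma fit (3.58.1, R 4.3.3; lmFit, eBayes), so the middle tier adds to the estimate of the spread. Adjusted p-values are those of Benjamini and Hochberg, taken across every gene tested. Where a tumour was left out, the limma fit used the remaining 14. The naming rule took 10 genes in each direction from called genes with non-overlapping tiers, then by p among genes differing by at least 1, a fixed set of bone genes, and up to 4 genes of each list with the smallest p. The members, the 14 gene lists and the 13 marker lists were chosen with earlier results of these data known, and no list was given a test. In simulated data, of 50 genes changed by 1, 2, 3 and 4 on the log2 scale among 12201, the fit called 22, 47, 47 and 50, with 7 false calls. The simulated noise was independent for each gene and array, without array sets or a tumour far from the others. These rates need not hold for the real data. Alternatives changed the scaling, floor, filter, choice of probe set, arrays in the fit, trend, covariates and array weights. For arrays, their number limits the precision.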

Additional observations from a re-analysis of the deposited data

Results flagged for a closer look

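In each tier the highest and the lowest of the 5 tumours were compared with the rest (a gap to the nearest of over 0.71 of the range). Of 58 groups examined, for 29 measures, 8 stood out; chance gives about 1 in 20. Ibsp, which ranked the tumours, was not among the measures. Tumour 330 was far below the rest of the low tier in Alpl at 7.42 (next 11.93) and Sp7 at 6.86 (next 9.96), on the log2 scale. In the low tier, Col7a1 stood at 10.97 in tumour 94 (next 9.50). In the high tier, Phex stood at 10.36 in tumour 183 (next 4.18), Dmp1 at 4.40 in tumour 176 (next 8.87) and Slit3 at 9.84 in tumour 87 (next 9.20). Tumour 87 also stood apart as an array: it was the only high tier array in the lower set of control ratios, with a bioB to bioC ratio of 0.436 (next 1.196), and its array median was 55.8 (next 53.0).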

How the results depend on the processing

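The main comparison called 1 gene higher and 0 lower. Both counts stayed the same under 75th percentile scaling, quantile normalization, a floor at the 40th percentile, a filter at the 75th percentile, the mean of the kept probe sets and the trend without tumour 330. The count of higher genes went from 1 to 0 with no filter, every kept probe set, only the 10 arrays of both tiers, tumour 330 left out and the next tumour taken in, the control ratio, Gapdh ratio or muscle markers as a covariate, array weights, and only arrays above or only arrays below the control ratio limit. Leaving out each tumour gave 0 to 2 higher and 0 to 3 lower; without tumour 87 it was 2 and 3 (Btla, Ramp3, Naip2, Sv2a and Rab27a) and without tumour 179 it was 1 and 1 (Btla and Ly6e). The trend over 15 tumours, called by adjusted p alone without a threshold on the difference, gave 51 higher and 34 lower. Tiers from the second Ibsp probe set, added after seeing the data like the muscle covariate and the fits within control ratio sets, gave 10 and 55. The sign of a gene difference turned for Sox6 (-0.15) and Spon2 (0.031) in the trend over 15 tumours; for Sp7 (-0.026), Ptgis (-0.034) and Cpe (-0.19) in the trend without tumour 330; for Sp7 (-0.10), Ptgis (-0.00075) and Cpe (-0.16) with the next tumour taken in; without tumour 330 for Sp7 (-0.093, where leaving out each tumour in turn gave up to 0.87) and Cpe (-0.11, up to 1.36); for Dmp1 (-0.23) with the second probe set; and for Phex (-0.11), Sp7 (-0.0062), Col1a1 (-0.0048), Scx (0.091) and Tnmd (0.021) within arrays below the control ratio limit. Of the 27 list medians, 19 took the opposite sign under at least 1 setting, and 8 kept theirs under all: bone matrix, osteocyte, mitosis, hypoxia, interferon, osteoclast, macrophage and skeletal muscle. The cause of these changes was not tested, except that fewer arrays or more genes tested leave less power. No paired analysis was possible because the tumours of both tiers carry different numbers. The tiers hold 5 tumours each, 2 sets of arrays and 1 tumour far from the others, so a p that misses the threshold does not show that a gene is level.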
